A study of Mus musculus with 15 samples.

Results

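The apolipoprotein genes examined here were Apoa1, Apoa2, Apoa4, Apoa5, Apob, Apoc1, Apoc3, Apoe, Apoh and Apom, 10 genes of 23589 loci with a gene name and 33603 loci in all. They were chosen by gene symbol, and each of the 10 was found on 1 locus that carried no other gene name. RNA-Seq had been carried out on 5 tissues of male C57BL/6 mice (hippocampus, hypothalamus, colon, liver and epididymal fat, the white fat pad beside the epididymis) after 3 feeding regimes. AL mice ate ad libitum and were 5 months of age. DR mice were put on 40% dietary restriction at 4 months and were killed 1 month later, at 5 months of age. DR-AL mice went through the same month of restriction, returned to AL feeding and were killed at 7 months of age, so a lasting effect of restriction, the refeeding and the greater age cannot be told apart in them. RNA samples of several mice were pooled, so that each tissue and diet gave 1 library, 15 in all. No diet was therefore replicated within a tissue. Counts were expressed as CPM, counts per 1000000 counts on named loci.

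Apolipoproteins are the protein part of the lipoproteins that carry cholesterol and triglyceride in blood. The liver makes most of them, the intestine makes Apob and Apoa4 for chylomicrons, and macrophages and astrocytes make Apoe. Some shape the particle (Apob in very low and low density lipoprotein, Apoa1 and Apoa2 in high density lipoprotein), others set how fast lipoprotein lipase clears triglyceride (Apoa5 promotes it, Apoc3 slows it), and Apoe is the ligand that receptors recognise.

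In the deposited table, Apoa1, Apoc3, Apoa4 and Apoa5 lie side by side on chromosome 9, and Apoe and Apoc1 on chromosome 7. The RefSeq promoter table (GRCm38.p6, 250 bases before to 50 bases after a start site) held 8 of the 10 genes. The promoters of Apoa1, Apoa4 and Apoa5 are printed because these neighbours differed in their liver values, and that of Apob because Apob was the member with a high level in colon. Capitals mark TATAAA (searched on both strands, in 13.6% of all 32851 promoters of this length).
Apoa1, chr9:46228380-46228679, plus strand: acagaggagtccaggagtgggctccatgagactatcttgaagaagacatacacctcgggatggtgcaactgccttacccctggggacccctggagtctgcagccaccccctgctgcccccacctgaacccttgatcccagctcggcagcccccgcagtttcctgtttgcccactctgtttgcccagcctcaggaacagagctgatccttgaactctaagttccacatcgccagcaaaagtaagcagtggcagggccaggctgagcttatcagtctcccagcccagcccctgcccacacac
Apoa4, chr9:46240594-46240893, plus strand: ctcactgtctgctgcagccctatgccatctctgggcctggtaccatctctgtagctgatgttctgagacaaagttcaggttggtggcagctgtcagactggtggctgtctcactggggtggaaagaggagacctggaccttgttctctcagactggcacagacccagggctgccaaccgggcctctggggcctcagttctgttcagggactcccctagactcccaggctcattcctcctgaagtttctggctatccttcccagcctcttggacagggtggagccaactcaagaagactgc
Apoa5, chr9:46268358-46268657, plus strand: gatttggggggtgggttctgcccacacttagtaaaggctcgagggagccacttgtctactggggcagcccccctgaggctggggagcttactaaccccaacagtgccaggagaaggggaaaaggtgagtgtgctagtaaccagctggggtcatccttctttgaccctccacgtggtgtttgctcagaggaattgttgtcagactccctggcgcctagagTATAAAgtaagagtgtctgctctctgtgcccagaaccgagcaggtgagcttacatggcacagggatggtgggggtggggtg
Apob, chr12:7977427-7977726, plus strand: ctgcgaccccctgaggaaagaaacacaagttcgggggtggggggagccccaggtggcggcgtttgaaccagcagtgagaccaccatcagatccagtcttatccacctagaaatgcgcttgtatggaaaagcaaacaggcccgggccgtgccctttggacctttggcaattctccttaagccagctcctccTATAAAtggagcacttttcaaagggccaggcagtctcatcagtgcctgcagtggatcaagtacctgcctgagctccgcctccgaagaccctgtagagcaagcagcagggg
The letters TATAAA began 31 bases before the start site in the Apoa5 window and 60 bases before it in the Apob window, and these letters were not in the Apoa1 and Apoa4 windows. An exact form of the motif of the liver factor HNF4, CAAAGTCCA on either strand, is in 0.475% of all promoters and was in none of the 4 windows. The nuclear receptor half-site in the exact form AGGTCA on either strand is in 16.3% of all promoters and was in none of the 4 windows. Other forms of either motif were not searched, so these results do not show that the windows lack sites for these factors.

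The libraries held between 21767088 and 40500130 counts on named loci, with a median of 26554699. The fat and liver libraries held the markers of their labels. The summed level of 7 adipocyte genes was between 26537 and 39046 CPM in the fat libraries and at most 89.6 CPM in liver. The 31 hepatocyte genes reached between 78631 and 85358 CPM in liver. Alb, the albumin gene, was listed at 0 in all 15 libraries and was left out of the hepatocyte reference. The AL fat library stood apart. It held 19643 CPM of the hepatocyte genes, against 5358 CPM in DR fat and 4179.6 CPM in DR-AL fat, and Cyp2e1, which fat also expressed at 43.0% to 55.2% of its liver level, was part of these sums. DR and DR-AL fat in turn held 583 and 2818 CPM of 7 testis germ cell genes, against 4.77 CPM in AL fat, and 3246 and 5088 CPM of 7 epididymis genes, against 908 CPM.

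All 10 genes had their highest level in liver. Together they took between 6.33% and 7.02% of the liver counts, between 0.190% and 1.11% of the fat counts, and between 0.0370% and 0.208% of the counts in the libraries of the other 3 tissues. Apoe alone stayed high in the brain regions, at 1907 to 2071 CPM in hypothalamus and 1419 to 1629 CPM in hippocampus. Apob was the only other member above 100 CPM in every library of a tissue other than liver, at 335 to 603 CPM in colon. The quasi-likelihood test of edgeR over the 15 libraries, with tissue and diet as terms and adjustment over 17476 loci, called all 10 genes higher in liver than in fat, colon, hypothalamus and hippocampus, where 70.2%, 64%, 77.8% and 76.9% of loci were called in either direction. The largest adjusted p among these calls of edgeR was 0.0488, for Apob in liver against colon, and without a filter on low counts that call was lost.

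**Figure D1:**
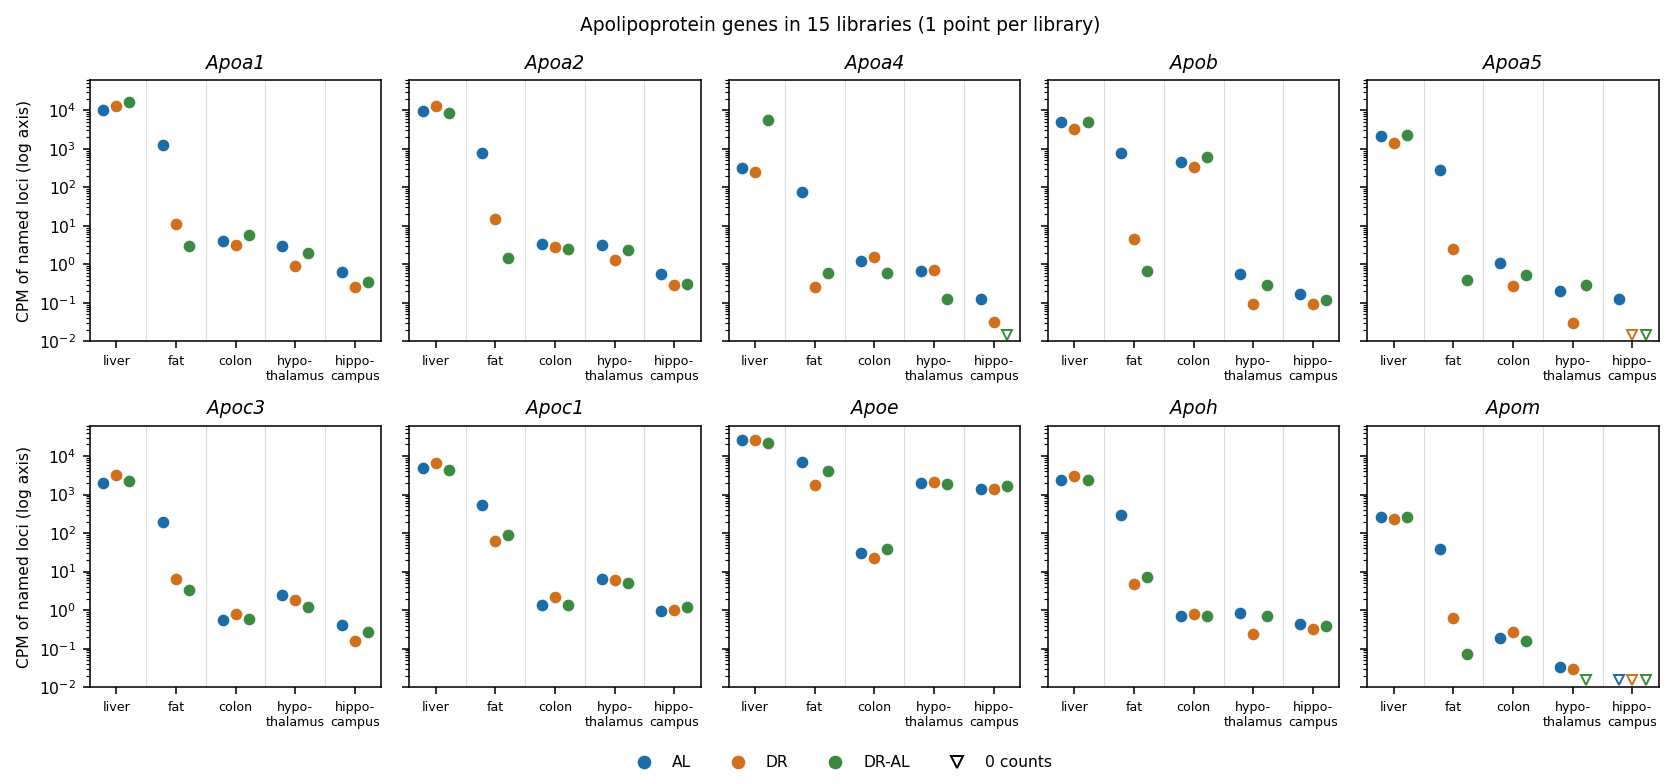
Level of each gene in CPM (vertical log axis) in the 5 tissues (horizontal axis), with 1 point per library coloured by diet and open triangles for libraries with 0 counts. The liver points are the highest of every gene, the AL fat point lies above both other fat points of every gene, and the brain points of Apoe, between 1419 and 2071 CPM, lie far above those of the other 9.

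The order of the other tissues varied with the gene. In fat against colon, 7 members were called higher in fat by edgeR's test and none lower (70.7% of loci called), and Apob, Apoa4 and Apom were not called. Fat exceeded hypothalamus for 9 members (71% of loci called) and hippocampus for 10 (74.1%). Without the AL fat library, 5, 7 and 8 members were called in these 3 pairs, in either direction. Colon differed from hypothalamus for 2 members (77.1%), with Apob higher and Apoe lower in colon, and from hippocampus for 3 (76.5%), with Apoa1 added. Without the AL fat library these counts were 7 and 10, and the count between the brain regions was 3. The 2 brain regions differed for Apoc1 (30.7% of loci called), which was at 5.06 to 6.37 CPM in hypothalamus and 0.938 to 1.19 CPM in hippocampus.

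Within a library, deposited FPKM values (fragments per kilobase of transcript, scaled to library size) allow genes of different length to be ordered. In the AL liver Apoe stood highest of all named loci at 56100.3 FPKM, followed by Apoa2 at 47324 FPKM and Apoc1 at 36400.4 FPKM. Apob, which has a very long transcript, was at 581 FPKM, and Apoa4 was lowest of the 10 at 344 FPKM. In the AL hypothalamus Apoe was the fifth most abundant named locus at 891 FPKM, and Apoc1, next among the members, was at 11.2 FPKM. In the AL colon Apoe at 35.1 FPKM and Apob at 30.8 FPKM lay close together.

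The effect of restriction and refeeding in liver was examined first by the test of the study's methods, a Z test on square roots of counts with Poisson variance, adjusted by Benjamini-Hochberg over 17408 loci. A gene was called at an adjusted p under 0.05 and a change of at least 0.32 on the log2 scale, the study's minimum fold. This test compares 2 pooled libraries, not 2 groups of mice, and its intervals cover counting error only. In bulk tissue, fewer cells of a type and less RNA per cell cannot be told apart. Both comparisons with AL use the same AL library. DR against AL and DR-AL against DR use the same DR library with opposite sign, so a deviation of that library alone gives opposite changes.

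In the DR liver 5 of 10 members were called higher than in AL, where 18% of loci were, and 3 were called lower, where 9.92% of loci were. Apoa1, Apoa2, Apoc1, Apoc3 and Apoh were the higher ones, Apoa4, Apoa5 and Apob the lower ones, and Apoe and Apom were not called. In the DR-AL liver 2 members were called higher than in AL (15% of loci) and 1 lower (15.8%). Against DR, the DR-AL liver had 4 higher (16.9%) and 5 lower (24%). The median log2 fold change of the members was 0.17 for DR against AL, beside 0.08 over the 12823 loci with a mean of at least 10 counts.

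**Figure D2:**
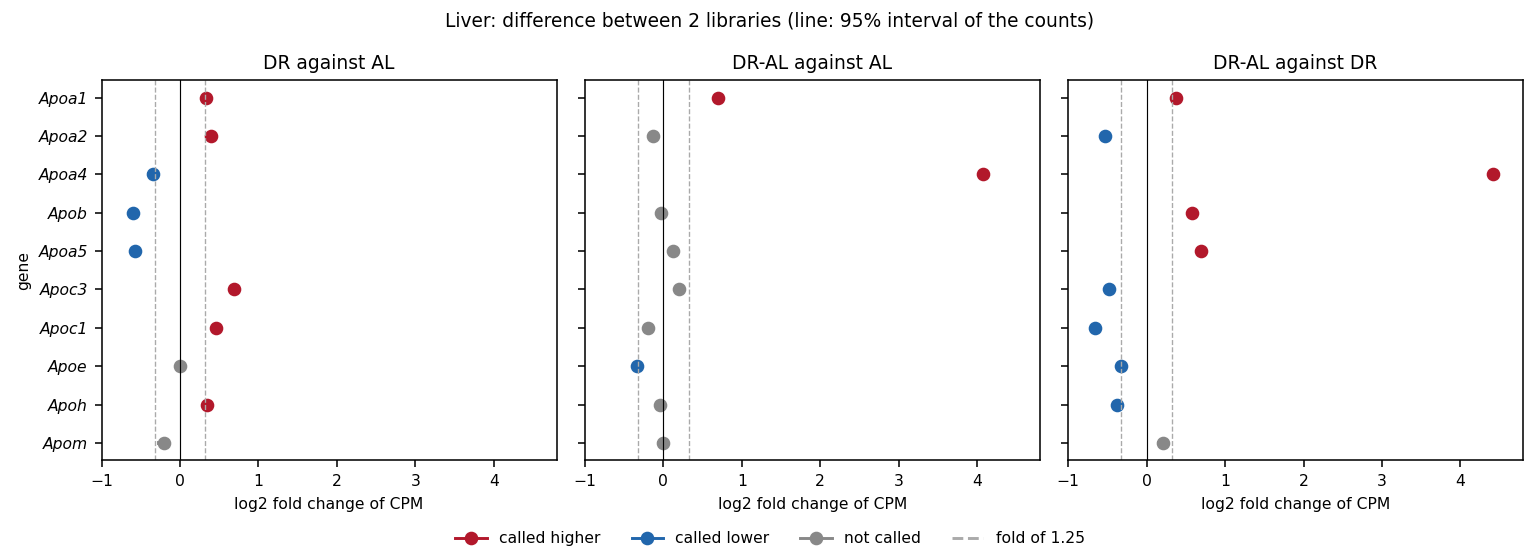
Log2 fold change of CPM in liver (horizontal axis) for the 10 genes in the 3 comparisons, with 95% intervals of the ratio of counts (narrower than most points), dashed lines at the minimum fold and colour by call. Apoa4 lies at 4.07 in DR-AL against AL, and Apob, Apoa5, Apoa4, Apom, Apoc1, Apoc3, Apoa2 and Apoh change sides between DR against AL and DR-AL against DR, which share the DR library.

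Among the genes of high density lipoprotein, Apoa1, which activates cholesterol esterification on the particle, was at 10100.4 CPM in AL, 12714.5 CPM in DR and 16418.5 CPM in DR-AL liver. It was lowest in AL and highest in DR-AL, 1.26 times AL in DR (95% interval 1.252 to 1.266) and 1.63 times AL in DR-AL (1.62 to 1.63). Apoa2, the second main protein of the particle, was at 9536, 12569.8 and 8727 CPM. It was high in DR only, 1.32 times AL (1.31 to 1.33), and the DR-AL value lay below AL by less than the fold required for a call.

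Apoa4, a lipid-sensing apolipoprotein of chylomicrons and high density lipoprotein, was at 323 CPM in AL liver, 254 CPM in DR and 5425 CPM in DR-AL. The DR-AL library stood far above the others, 16.8 times AL (16.4 to 17.2) and 21.3 times DR (20.8 to 21.9), and the counts behind these values were 7981, 5539 and 132891. This was the largest liver difference of any member. Fabp2, a fatty acid binding protein typical of enterocytes, was at 97.5, 52.7 and 329 CPM in the same libraries. The other 6 small intestine enterocyte markers were at or near 0 in liver: Sis, Lct, Rbp2, Alpi and Fabp6 had 0 counts in all 3 libraries and Mep1a had 1 to 3 counts. Cidec, a lipid droplet gene of adipocytes and fatty liver that was chosen after its values were seen, was at 10.1, 1.93 and 74.3 CPM, within a summed level of 17.3, 18.2 and 89.6 CPM of the 7 adipocyte markers. Of these 7 markers, 4 were called higher and none lower in DR-AL against AL (Cidec, Fabp4, Cfd and Adipoq, the last from 2 and 11 counts), and Lep had 0 counts in both. In AL, DR and DR-AL fat these 7 markers summed to 39046, 32470 and 26537 CPM. Apoa4 itself was at 77.6, 0.263 and 0.585 CPM in those fat libraries. The part of adipocyte RNA in the Apoa4 value of liver was not tested.

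Apob, the structural protein of very low density lipoprotein, was at 4952 CPM in AL, 3265 CPM in DR and 4860.1 CPM in DR-AL liver. DR was the low library, 1.52 times below AL (1.50 to 1.53), and DR-AL lay within the required fold of AL. Apoa5, an activator of triglyceride clearance, had the same shape at 2088, 1403 and 2270.4 CPM, with DR 1.49 times below AL (1.47 to 1.51). Apoc3, which slows triglyceride clearance, had the opposite shape at 1965, 3154 and 2262 CPM, with DR 1.60 times above AL (1.59 to 1.62).

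Apoc1, an inhibitor of lipoprotein uptake, was at 4875, 6709 and 4243 CPM in AL, DR and DR-AL liver. It was 1.38 times AL in DR (1.37 to 1.39). Apoh, a phospholipid-binding plasma protein also called beta-2-glycoprotein I, was at 2448, 3099.9 and 2381 CPM, 1.27 times AL in DR (1.253 to 1.280). Both were high in DR and close to AL in DR-AL. Apoe was at 26780.5, 26766 and 21255 CPM, with AL and DR indistinguishable by counting error (ratio 0.999, interval 0.996 to 1.00) and DR-AL at 0.794 times AL (0.791 to 0.797). Apom, the sphingosine-1-phosphate carrier of high density lipoprotein, was at 264.3, 228.6 and 264.3 CPM and was called in none of the 3 comparisons.

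Several liver calls lay close to the minimum fold. With DESeq median-ratio size factors, which shift DR against AL by 0.088 on the log2 scale, 2 members were called higher in DR (Apoc1 and Apoc3) and 3 lower, while Apoa1, Apoa2 and Apoh kept their direction below the required fold. With edgeR's exact test at an assumed biological coefficient of variation of 0.1, 1 member was called higher in DR and 1 lower, and in DR-AL against DR 3 were called higher and 2 lower. The Apoa4 and Apoa1 calls of DR-AL against AL were made with size factors too, and the Apoe call was lost.

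The 4 chromosome 9 neighbours therefore had different profiles in liver. Apoa1 was highest in DR-AL and Apoc3 highest in DR. Apoa4 and Apoa5 were both lowest in DR, but in DR-AL Apoa5 was 1.09 times AL (1.07 to 1.10), within the required fold, where Apoa4 was 16.8 times AL. On chromosome 7, Apoc1 was highest in DR, and Apoe was lowest in DR-AL.

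**Figure D3:**
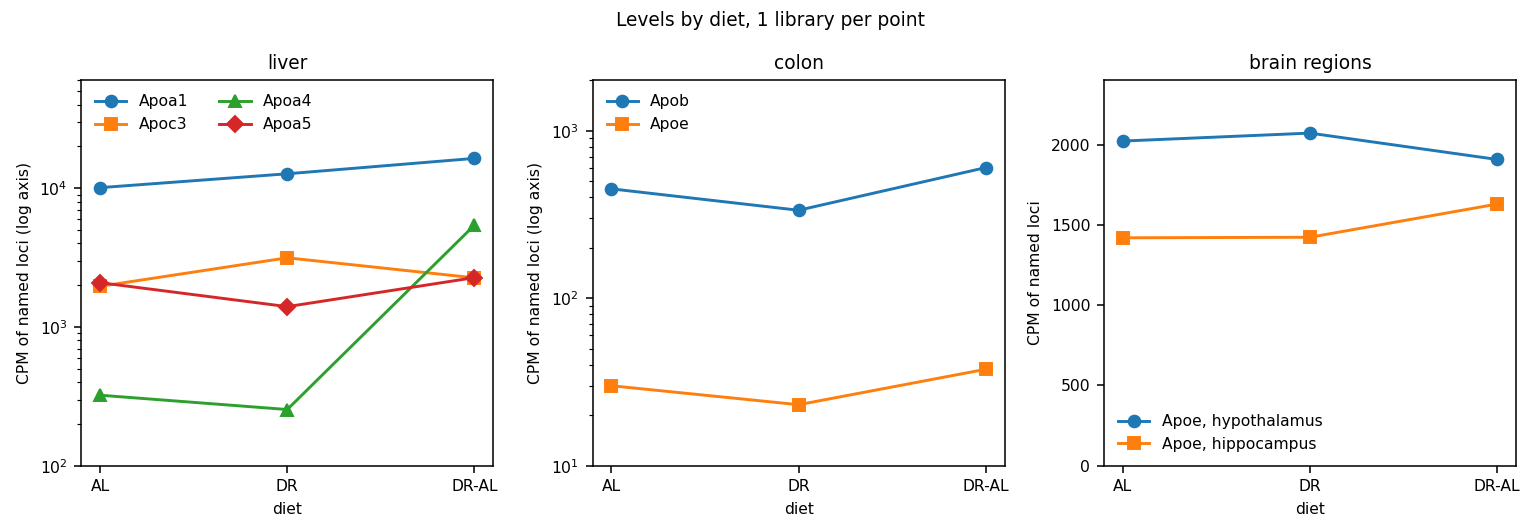
CPM by diet (horizontal axis), 1 library per point, for the chromosome 9 neighbours in liver (log axis), Apob and Apoe in colon (log axis) and Apoe in the brain regions (linear axis from 0). Apoa4 climbs from 254 CPM in DR liver to 5425 CPM in DR-AL liver, Apob and Apoe are lowest in DR colon, and the brain lines stay between 1419 and 2071 CPM.

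Other genes of lipoprotein metabolism were taken from 5 lists, to be read against 18% of loci called higher and 9.92% lower in DR liver, and 15% and 15.8% in DR-AL liver, both against AL. Of 13 other apolipoproteins, 1 was called higher and 5 lower in DR liver, led by the acute phase apolipoproteins Saa2 (45.3 to 2.57 CPM) and Saa1 (113 to 6.89 CPM), and by Apon (334 to 224 CPM). In DR-AL against AL, 4 of the 13 were higher and 7 lower. Apoc2, the activator of lipoprotein lipase, was among the higher, at 307 CPM in AL and 561 CPM in DR-AL. Of 11 lipoprotein receptors, 3 were higher in DR and 4 lower, among them Vldlr (1.66 to 8.50 CPM) above and Sdc1 (237 to 140 CPM) below. Of 9 loci for lipases and their regulators, 6 were higher and 1 lower in DR. Gm6484 (also named Angptl8, an inhibitor of lipoprotein lipase) went from 16.3 to 70.8 CPM, and the lipase gene Lipg from 16.9 to 28.9 CPM.

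Of 13 genes of lipoprotein assembly and remodelling, 5 were higher and 2 lower in DR liver. Tm6sf2, needed for loading very low density lipoprotein with lipid, went from 29.6 CPM in AL to 60.6 CPM in DR. The sterol esterifying enzyme Soat2 went from 38.4 to 66.8 CPM, while Apobec1, which edits the Apob mRNA, went from 15.8 to 7.63 CPM. Of 20 transcription regulators, 6 were higher and 3 lower, led by Srebf1 (62.8 to 260 CPM), Mlxipl (145 to 399 CPM) and Nr1d1 (75.1 to 127 CPM). In DR-AL against AL, none of the 20 was higher and 6 were lower, with Srebf1 at 18.5 CPM and Mlxipl at 64.4 CPM. The lipase list had 2 higher and 3 lower in the same comparison, with Lpl and its anchor Gpihbp1 higher by 0.96 and 0.81 on the log2 scale. The receptor list had 2 higher and 4 lower, and the assembly list 2 higher and 5 lower, led by the sterol exporters Abcg5 and Abcg8, whose log2 fold changes were -1.34 and -1.14. The median log2 fold change of these lists in DR liver lay between -0.23 and 0.56, beside 0.08 over the loci with a mean of at least 10 counts.

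In fat, every member was highest in the AL library. Apoa1 was at 1221 CPM in AL, 11.5 CPM in DR and 2.96 CPM in DR-AL, Apoa2 at 778, 15.2 and 1.50 CPM, and Apoa4 at 77.6, 0.263 and 0.585 CPM. The AL value of each was at least 51.4 times either of the others. Apob was at 769, 4.60 and 0.658 CPM, Apoa5 at 277, 2.54 and 0.402 CPM, and Apoc3 at 199, 6.44 and 3.25 CPM. AL again stood far above, 167 times DR for Apob (138 to 205) and 30.9 times DR for Apoc3 (26.3 to 36.7). Apoh was at 299, 4.82 and 7.24 CPM and Apom at 39.3, 0.613 and 0.0731 CPM, with 2 counts of Apom in DR-AL.

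Apoe and Apoc1 had the highest levels of the members in DR and DR-AL fat. Apoe was at 6916 CPM in AL, 1797 CPM in DR and 4087 CPM in DR-AL fat, so that DR was the low library and DR-AL lay between. AL was 3.85 times DR (3.81 to 3.89) and 1.69 times DR-AL (1.68 to 1.70). By deposited FPKM these differences were larger, with Apoe at 4098, 584 and 768 FPKM in AL, DR and DR-AL. FPKM values as a whole were also lower, relative to CPM, for the DR and DR-AL fat libraries. Set against AL liver, the median log2 ratio of FPKM to CPM over loci was -1.58 for the AL fat library. It was -2.30 for DR fat and -3.19 for DR-AL fat. The part of this shift in the larger Apoe differences was not tested. Apoc1 was at 527, 60.6 and 91.3 CPM, with AL 8.70 times DR (8.23 to 9.20).

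All 10 members were called lower in DR fat than in AL fat, where 10.4% of loci were called lower and 35.2% higher. All 10 were also called lower in DR-AL than in AL, where 11.9% of loci were called lower and 46% higher. The median log2 fold changes of the members were -5.95 and -7.84, beside 0.24 and 0.34 over the 17306 loci with a mean of at least 10 counts. Size factors shifted these 2 comparisons by 0.188 and 0.337 on the log2 scale and ended none of the 20 calls. Between DR-AL and DR, which do not involve the AL library, Apoe, Apoc1 and Apoh were called higher in DR-AL (38.3% of loci higher), 6 members were called lower (13.3%), and Apoa4, with 6 and 16 counts, was not called. From FPKM the log2 differences of Apoc1 and Apoh between DR-AL and DR were of the opposite sign. The median log2 ratio of FPKM to CPM over loci, relative to AL liver, was also lower in DR-AL fat (-3.19) than in DR fat (-2.30).

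Each member's AL fat level was then set beside its AL liver level. Apoa2 was at 8.16% of the liver level (exact 95% interval 8.05 to 8.28), Apoc3 at 10.1%, Apoc1 at 10.8%, Apoa1 at 12.1%, Apoh at 12.2%, Apoa5 at 13.3%, Apom at 14.9% and Apob at 15.5%. These 8 genes thus ran from 8.16% to 15.5%, while their liver levels ran from 264.3 to 10100.4 CPM. Apoa4 was at 24.0% (22.9 to 25.2) and Apoe at 25.8% (25.7 to 26.0), above the rest. The 30 hepatocyte reference genes were at 11.1% to 55.2% of their liver level in the same library, with quartiles of 13.6% and 18.7% and a median of 15.7%. The median of the members was 12.7%, and 2 of the 10, Apom and Apob, lay between the quartiles. This percentage depends on the scaling between tissues, and the members' median was 4.19% from FPKM and 6.06% with DESeq size factors over the 15 libraries, where the reference median was 5.52% and 7.48%. The highest reference value was that of Cyp2e1, and the next was Itih4 at 24.5%, so that Apoe lay above 29 of the 30 reference genes, and Apoa2, Apoc3 and Apoc1 lay below all 30.

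**Figure D4:**
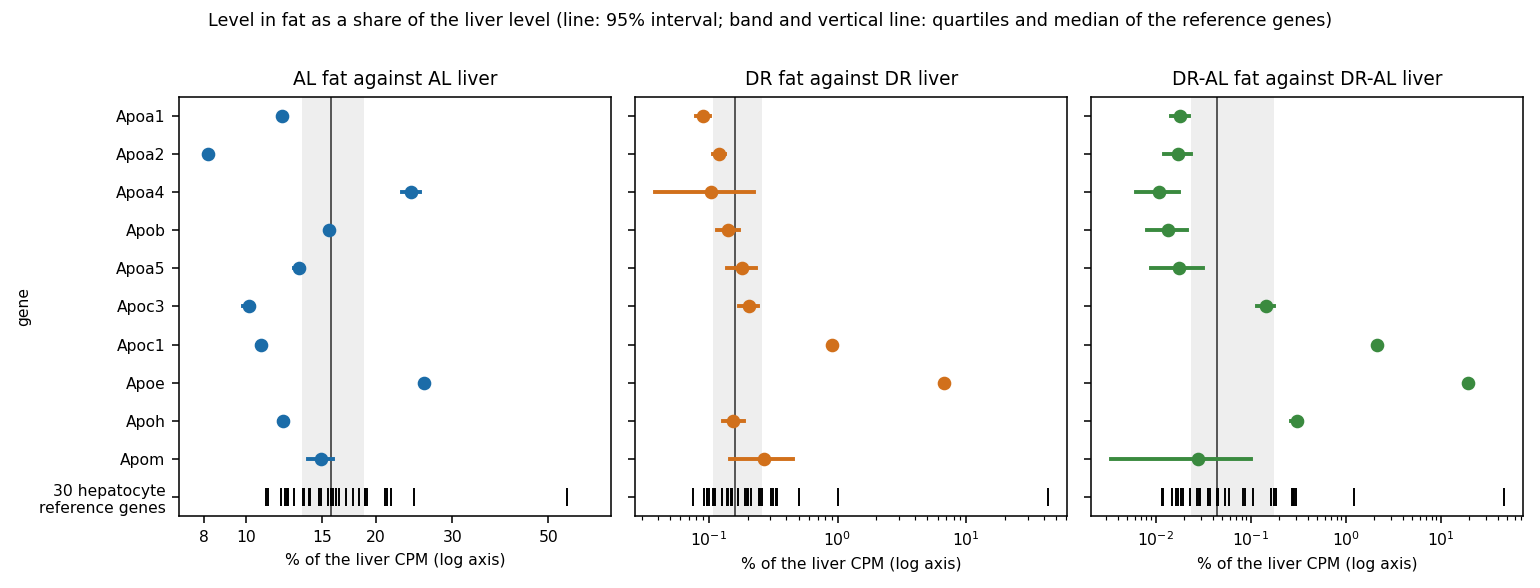
Level in each fat library as a percent of the level in the liver library of the same diet (horizontal log axis), with exact 95% intervals, for the 10 genes and for 30 hepatocyte reference genes (ticks in the bottom row, with quartiles as a grey band and the median as a vertical line). In AL fat the members lie between 8.16% and 25.8%, and in DR and DR-AL fat Apoe and Apoc1 lie to the right of the other 8 members.

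In DR fat the reference median was 0.159% of the liver level and in DR-AL fat 0.0444%. Apoa1, Apoa2, Apoa4, Apoa5, Apob, Apoc3, Apoh and Apom were at 0.0903% to 0.268% of the liver level in DR fat and at 0.0108% to 0.304% in DR-AL fat. Apoe was at 6.72% (6.65 to 6.78) and 19.2% (19.1 to 19.4), and Apoc1 at 0.903% and 2.15%, both above the other members in both libraries. The low member values in DR and DR-AL fat thus went with low values of the hepatocyte genes, and the part of liver RNA in the AL fat values was not tested. When the median reference share of the liver level was taken off each fat value, 2706 CPM of Apoe were left in AL, 1755 CPM in DR and 4077 CPM in DR-AL. On that scale DR-AL was above AL, by 0.59 on the log2 scale, the opposite of the direct comparison, and DR stayed the lowest. In AL fat the same subtraction left every member but Apoe and Apoa4 negative, down to -721 CPM for Apoa2. The reference share is therefore larger than the whole AL fat value of those genes. The Apoe order of AL and DR-AL depends on the share taken off. With none, AL was above DR-AL (6916 and 4087 CPM), and with the lower reference quartile share AL was below (3286 and 4082 CPM). Shares in between were not computed. This subtraction was chosen after the values were seen. Summed macrophage markers, 9 loci, were at 539, 757 and 670 CPM in AL, DR and DR-AL fat, and did not share the order of Apoe. The part of macrophages or of other cells in the Apoe values was not tested.

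The lists of related genes in fat are given against 35.2% of loci higher and 10.4% lower in DR than in AL. Of 13 other apolipoproteins, 11 were called lower and 1 higher in DR fat, and Apon (46.6 to 0.394 CPM), Saa4 (21.1 to 0.219 CPM) and Apol7a (27.0 to 0.482 CPM) were the largest. Apod, which binds small lipids such as arachidonic acid and is not a liver gene, was the 1 called higher, at 18.9, 43.4 and 63.2 CPM in AL, DR and DR-AL. Of 13 assembly and remodelling genes, 9 were lower and none higher in DR, led by the sterol exporter Abcg8 (28.2 to 0.745 CPM) and the plasma enzyme Pon1 (131 to 3.90 CPM). The liver lipase Lipc was at 26.8, 0.175 and 0 CPM, and the 9 lipase loci had 6 lower and 2 higher in DR. Of 20 regulators, 9 were lower and 6 higher, led by Creb3l3 (58.0 to 0.876 CPM), Nr1h4 (31.1 to 2.80 CPM) and Hnf4a (110 to 17.2 CPM). Of 11 lipoprotein receptors, 5 were higher and 2 lower in DR, led by Sorl1 (22.4 to 144 CPM), Lrp2 (13.6 to 62.2 CPM) and Lrp8 (1.41 to 5.34 CPM). The epididymis markers (908 to 3246 CPM) and germ cell markers (4.77 to 583 CPM) were also higher in the same DR library, and their part in these receptor values was not tested.

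In colon, Apob was at 449.8 CPM in AL, 335 CPM in DR and 603 CPM in DR-AL. DR was the low library and DR-AL the high one. By the Z test Apob was 1.34 times lower in DR than in AL (1.31 to 1.38, adjusted p = 2.92e-108) and 1.34 times higher in DR-AL than in AL (1.31 to 1.37, adjusted p = 9.36e-125). Apoe had the same order at 30.1, 23.2 and 37.7 CPM, with DR 1.30 times below AL (1.17 to 1.43) and DR-AL above AL by 0.33 on the log2 scale (a ratio of 1.14 to 1.38). In AL colon Apob was at 9.08% of its liver level and Apoe at 0.112%, beside a median of 0.0478% for the hepatocyte reference genes. The other 8 members were below 6 CPM in each colon library, and the largest of them was Apoa1 at 3.95, 3.20 and 5.83 CPM.

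In DR against AL, no member was called higher in colon (9.04% of loci) and 3 were called lower (10.6%), namely Apob, Apoe and Apoa5, the last from 28 and 9 counts. In DR-AL against AL, Apoa1, Apob and Apoe were higher (5.83% of loci) and Apoa4 was lower (8.5%). In DR-AL against DR the same 3 were higher (6.78%) and Apoa4 was lower (7.67%). At an assumed coefficient of variation of 0.1, edgeR's exact test called only Apoa5 in DR against AL, none in DR-AL against AL (where the Z test called 4), and Apob and Apoe in DR-AL against DR. Apob had an adjusted p of 0.341 in DR against AL and 0.522 in DR-AL against AL by that test. In the DR colon Creb3l3, a regulator of apolipoprotein genes in liver and intestine, was at 16.5 CPM against 60.7 CPM in AL and 73.0 CPM in DR-AL. Of the 20 regulators, 2 were called higher and 4 lower in the DR colon. The summed enterocyte markers were at 2024, 1302 and 1497 CPM and the colon epithelium markers at 14857, 13765 and 13195.5 CPM in AL, DR and DR-AL, so neither list had the order of Apob.

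In the brain regions Apoe stood apart from all other members. It was at 2022 CPM in AL, 2071 CPM in DR and 1907 CPM in DR-AL hypothalamus, and at 1419, 1423 and 1629 CPM in hippocampus. The DR-AL library was lowest in hypothalamus and highest in hippocampus, and none of the 6 comparisons reached the minimum fold. The ratio of DR to AL was 1.02 (1.01 to 1.04) in hypothalamus and 1.00 (0.990 to 1.01) in hippocampus. Summed astrocyte markers were at 4147, 4090 and 3997 CPM in hypothalamus and at 5553, 5524 and 6383 CPM in hippocampus, with the DR-AL library lowest and highest in the same way. The median astrocyte marker was at 271.8, 267.8 and 225.0 CPM in hypothalamus, again lowest in DR-AL. In hippocampus it was at 283.2, 268.9 and 269.5 CPM, so there DR-AL was highest for the sum only. Apoc1 in hypothalamus was at 6.37, 6.11 and 5.06 CPM, 189, 200 and 158 counts, and was not called.

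The other 8 members were at most 3.27 CPM in hypothalamus and 0.642 CPM in hippocampus. In hypothalamus the counts of Apoa1 were 90, 30 and 63 with AL, DR and DR-AL feeding, and those of Apoa2 were 97, 43 and 72. In DR against AL no member was called higher (4.33% of loci) and Apoa1, Apoa2, Apob and Apoh were called lower (2.72%). In DR-AL against AL none was called higher (6.06%) and 3 were called lower (9.02%), and in DR-AL against DR 4 were higher (2.82%) and 1 lower (6.8%). The hepatocyte reference genes were at a median of 0.0243%, 0.00874% and 0.0143% of their liver level in AL, DR and DR-AL hypothalamus, the same order as Apoa1 and Apoa2, and their part in these values was not tested. At an assumed coefficient of variation of 0.1, 2, 0 and 1 members were called by edgeR's exact test in the 3 comparisons.

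In hippocampus 9 members were tested, since Apom had 0 counts in all 3 libraries. In DR against AL, none was called higher (1.36% of loci) and Apoa5 was called lower (2.67%), and in DR-AL against AL none was higher (3.99%) and Apoa4 and Apoa5 were lower (2.16%). Both genes rested on 5 counts in AL and on 0 or 1 counts in the other libraries, and a library with none allows a level of up to 3 counts. With a mean of at least 10 counts required, no member was called. In DR-AL against DR no member was called in either direction (3.63% and 1.26% of loci). Summed choroid plexus markers, mainly Ttr, were at 2902, 1778 and 2830 CPM in AL, DR and DR-AL hippocampus.

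A diet effect shared by the 5 tissues was tested in the same fit of edgeR, with the tissues of the same mice as the only replication. No member was called for DR over AL, for DR-AL over AL or for DR-AL over DR, where 0.0114%, 0.00572% and 0.0114% of 17476 loci were called (2, 1 and 2 loci). At an unadjusted p under 0.05, 1 member was counted in DR against AL, namely Apoa5 (adjusted p = 1.00 by edgeR), and none in the others. DESeq2 also called no member, with 4, 2 and 0 members at an unadjusted p under 0.05.

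Across the 15 libraries, the named locus most like each member was found by Pearson's r of log2(CPM + 0.5) among 11695 loci with a mean of at least 10 CPM. These r describe tissue differences for the most part, since the 5 tissues hold 3 libraries each. For Apoa1 it was Cyp3a11 (r = 0.998), for Apoa2 Serpina1b (0.997), for Apoa5 F2 (0.999), for Apoh Agxt2 (0.999), for Apom Ugt2a3 (1.00), for Apoc3 AI182371 (0.996), for Apoc1 Slc38a4 (0.993) and for Apob Cyp2d10 (0.996). For Apoa4 it was Gm4952 (0.984), and for Apoe, the member least like the others, Ttc39c (0.985). The r between Apoe and Apob was 0.0694, and the r between Apoe and Apoc1, its neighbour on chromosome 7 and the member closest to it, was 0.766.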

How the data were processed

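RNA-Seq of 15 pooled libraries was analysed (5 tissues, 3 diets, 1 library each). Per the study's methods, the authors mapped strand-specific reads to mm10 in Strand software after ribosomal depletion and removed duplicates, which can lower the counts of abundant transcripts most, an effect that was not tested. The submitters' processing notes name mm9 and DESeq2. Locus positions in the table differ from GRCm38, so none are printed, and promoter positions are those of RefSeq on GRCm38.p6.

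The authors deposited raw counts per locus, without normalization, and FPKM values, whose scale between libraries is not given in the sources used here and which were therefore compared only within a library or as an alternative. All 30 columns of values were used, and 0 were left out. Counts on named loci gave CPM. Loci without a name took 0.258% to 1.39% of all counts and stayed out of totals and tests.

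For each tissue, loci with a summed count of at least 1 entered the Z test. A pseudocount of 0.5 was added before log2 fold changes, and ratios have exact Clopper-Pearson intervals of 95%. Tissue and shared diet effects were fitted with edgeR 4.0.16 (TMM, filterByExpr, glmQLFit, glmQLFTest; 8 residual degrees of freedom) in R 4.3.3. DESeq2 1.42.0 and Python 3.11.15 with scipy 1.17.1 served the alternatives and the Z test. Intervals and floors cover counting error only. P-values over tissues rest on pools of the same mice. On simulated data, the Z test recovered 199 of 200 loci changed 2-fold in the liver comparison of DR with AL (23 false calls among 17408 loci). The test of the shared diet effect recovered 187 of 200 (10 false calls among 17562). The Z simulation drew Poisson counts, the spread this test assumes, with changes at abundant loci only. The shared diet simulation assumed a coefficient of variation of 0.1, whereas the fit to these data estimated a common 0.301. Recovery and false calls at a wider spread were not tested.

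The members, the lists and the tests were chosen with earlier results of these data known. Named are all members, up to 3 called genes per list with the largest changes among means of at least 100 counts, the 1 closest locus of each member, and Cidec, Fabp2, Apod, Apoc2, Adipoq and the markers named by their defining role, some of them chosen after their values were seen. Not every gene picked by this rule is reported here. The result of each marker list that bears on a member stands beside it.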

Additional observations from a re-analysis of the deposited data

Results flagged for a closer look

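Apoa1 was called in opposite directions in different tissues in both comparisons with AL. In liver its log2 fold change was 0.33 in DR against AL and 0.70 in DR-AL against AL. In fat it was -6.73 and -8.68, and in hypothalamus -1.71 and -0.58. Each value compares 1 pooled library with another, and the difference between the tissues was not tested. The median level of the hepatocyte reference genes, as a share of their liver level, was also lower in DR and DR-AL than in AL in both fat and hypothalamus, and the hypothalamus values rest on 90, 30 and 63 counts. With DESeq size factors the liver value of DR against AL (0.24) and the hypothalamus value of DR-AL against AL (-0.55) were no longer called. At an assumed coefficient of variation of 0.1, edgeR's exact test gave these 2 values adjusted p of 0.411 and 0.589.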

How the results depend on the processing

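No paired analysis was possible because, within a tissue, each diet has 1 pooled library. Across tissues, the fit over the 15 libraries has tissue and diet as terms, so it compares diets within tissues and tissues within diets. All 15 counts of called members stayed within 1.5 times without the 10 most abundant loci in the totals. With DESeq size factors 14 of 15 did, and in liver 5 members were called in DR against AL instead of 8. These values compare libraries of 1 pool, so biological spread was limited to what was assumed or shared between tissues.

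With a fold of at least 2, liver had 0, 1 and 1 members called in DR against AL, in DR-AL against AL and in DR-AL against DR, and colon had 1, 1 and 1. At an assumed coefficient of variation of 0.1, edgeR's exact test called 2 in DR against AL and 5 in DR-AL against DR in liver, 1, 0 and 2 in colon, 2, 0 and 1 in hypothalamus, and 0 and 0 in the hippocampus comparisons with AL. A mean of at least 10 counts left 0 and 0 in these hippocampus comparisons. From FPKM the log2 difference of DR-AL against DR in fat was -0.34 and -0.33 for Apoc1 and -0.50 and -0.31 for Apoh, with pseudocounts of 0.1 and 1. The median log2 ratio of FPKM to CPM over loci, relative to AL liver, was -2.30 in DR fat and -3.19 in DR-AL fat. FPKM values as a whole were thus shifted in the same direction. The part of this shift in the Apoc1 and Apoh values, and the cause of the other changes, was not tested.

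The members' median share of the liver level in AL fat was 4.19% from FPKM and 6.06% with size factors over the 15 libraries. With AL liver as the denominator it was 0.178% in DR fat and 0.0974% in DR-AL fat. The Apoe difference of DR-AL against AL in fat turned to 0.31, 0.59 and 1.08 after subtraction of the lower quartile, median and upper quartile reference share of the liver level. Lower shares, such as those of Apoa2 and Apoc3 in AL fat, were not subtracted. Without the AL fat library, 7 members differed between colon and hypothalamus, 10 between colon and hippocampus and 3 between the brain regions. DESeq2 gave 7 between colon and hippocampus and 2 between the brain regions. Leaving out each tissue in turn gave 0 members in the shared diet comparisons.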

Other observations

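Clu, an apolipoprotein of high density lipoprotein and of brain fluid, and Apod belong to the list of other apolipoproteins and were high in the brain regions. Clu was at 830, 808 and 794 CPM in AL, DR and DR-AL hypothalamus and was called in none of the 3 comparisons there. Apod was at 123 CPM in AL, 199 CPM in DR and 232 CPM in DR-AL hypothalamus, and was called higher in both comparisons with AL, which share the AL library. In hippocampus Apod was at 189, 184 and 259 CPM. In fat Clu was at 354, 403 and 505 CPM, so that neither gene had the high AL value that the 10 members had in fat. Both were chosen after their values were seen.

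Mttp, which loads lipid onto Apob, was at 335 CPM in AL liver, 234 CPM in DR and 385 CPM in DR-AL, called lower in DR than in AL and higher in DR-AL than in DR. Apob was called in the same directions in these libraries. In colon Mttp was at 4.37, 3.65 and 4.51 CPM and was not called. Mttp too was chosen after its values were seen.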
